A study of Mus musculus with 69 samples.

Results

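The comparison described here set macrophages without Egr2 against their controls after a single hour of interleukin-4 (IL-4). Its members are the 4 RNA-seq libraries of the 1 h time point, 2 of Egr2MKO and 2 of Egr2WT, out of 16 in the knockout table and 69 in the whole series. Egr2MKO cells were bone marrow-derived macrophages (BMDMs) from LyzM-Cre Egr2 fl/fl mice, and Egr2WT cells were BMDMs from Egr2 fl/fl mice, which carry the floxed alleles without Cre. Both were grown from marrow for 7 days and both received 20 ng/ml IL-4 for 1 h, so the genotype is the only labelled difference. Mice were female and 8 to 12 weeks old. LyzM-Cre expresses the recombinase from the lysozyme M locus (Lyz2) in myeloid cells, so that deletion takes place during differentiation and can be incomplete. Whether the 2 libraries of a group came from separate animals is not given in the labels. Standard errors and p-values rest on the spread between replicate libraries, pooled over all 16 libraries of the knockout table. They do not measure the spread of the 1 h libraries alone, nor a spread between animals. Untreated libraries and libraries after 6 and 24 h of IL-4, 2 for each genotype, served for comparison.

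EGR2 (KROX20) is a zinc finger transcription factor of the early growth response family, known for its part in hindbrain and Schwann cell development and, in macrophages, for its induction by IL-4. IL-4 binds a receptor that contains IL4RA, and JAK kinases then phosphorylate STAT6, which enters the nucleus and acts on its target genes within minutes. EGR2 is itself made during this first hour. The 1 h comparison therefore asks how far Egr2MKO cells differ in the state in which they meet IL-4. It also asks how far they differ in the first wave of the IL-4 response, before the late genes of alternative activation rise. Only Egr2MKO cells carried Cre, so loss of Egr2 and the presence of Cre at the Lyz2 locus cannot be told apart.

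Genes were compared as log2(TPM + 1), where TPM is the abundance of a transcript per length, scaled to the library. A gene was called higher or lower in Egr2MKO if the linear model of limma gave a difference of more than 2-fold on this scale with a Benjamini-Hochberg adjusted p under 0.05 over 12079 genes. Since 1 is added to every TPM, the fold of a gene with a low level is understated. After 1 h of IL-4, 58 genes were higher in Egr2MKO (0.48% of genes tested) and 70 were lower (0.58%). In all 128 of them the libraries of the genotypes did not overlap, which follows largely from the call itself. Of these 128 genes, 12 encode microRNAs or small nucleolar RNAs (5 higher and 7 lower) and are not named. Among the largest losses were the integrin Itgax, the proton pump subunit Atp6v0d2, the lipase Mgll, the chitinase-like protein Chil3 and the elastase Mmp12. Among the largest gains were 4 Serpina3 genes, Apoe and genes of the interferon response. Of the 128 genes, 82 were called in the same direction in untreated cells, and 1 gene of all those tested was called for a different 1 h response to IL-4.

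The promoters of the interferon genes Ifit1, Ifit3 and Isg15 and of the lost genes Mgll and Alas1 are shown as examples of the motifs counted over both groups. They run from 250 bases before the transcription start to 50 bases after it and were taken from RefSeq on GRCm38.p6. Capitals mark the core of the interferon-stimulated response element (GAAANNGAAA on either strand) in the first 3 sequences and a GC-rich EGR site (GCGGGGGCG on either strand) in the other two.
Ifit1, chr19:34640639-34640938, plus strand: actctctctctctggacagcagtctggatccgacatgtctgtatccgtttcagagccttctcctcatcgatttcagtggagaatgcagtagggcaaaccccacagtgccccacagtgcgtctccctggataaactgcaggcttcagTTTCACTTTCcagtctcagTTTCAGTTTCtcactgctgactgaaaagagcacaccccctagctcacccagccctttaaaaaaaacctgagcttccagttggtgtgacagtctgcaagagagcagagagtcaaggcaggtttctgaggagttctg
Ifit3, chr19:34583279-34583578, plus strand: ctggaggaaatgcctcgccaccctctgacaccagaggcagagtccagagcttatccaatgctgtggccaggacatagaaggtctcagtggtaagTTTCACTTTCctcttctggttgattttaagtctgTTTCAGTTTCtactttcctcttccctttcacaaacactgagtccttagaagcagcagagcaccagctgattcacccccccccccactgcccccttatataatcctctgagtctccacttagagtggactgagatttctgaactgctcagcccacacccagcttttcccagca
Isg15, chr4:156200769-156201068, minus strand: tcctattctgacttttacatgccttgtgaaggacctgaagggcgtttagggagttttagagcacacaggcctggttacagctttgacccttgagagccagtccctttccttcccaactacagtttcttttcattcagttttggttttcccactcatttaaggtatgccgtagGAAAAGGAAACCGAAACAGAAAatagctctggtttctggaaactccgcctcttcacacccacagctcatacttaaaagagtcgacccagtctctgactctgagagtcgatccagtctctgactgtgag
Mgll, chr6:88724162-88724461, plus strand: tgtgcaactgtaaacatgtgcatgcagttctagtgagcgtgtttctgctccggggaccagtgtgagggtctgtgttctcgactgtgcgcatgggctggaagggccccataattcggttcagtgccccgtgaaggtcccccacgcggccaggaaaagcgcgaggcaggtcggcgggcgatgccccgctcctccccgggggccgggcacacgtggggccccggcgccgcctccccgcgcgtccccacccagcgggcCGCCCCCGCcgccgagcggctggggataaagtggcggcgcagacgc
Alas1, chr9:106247905-106248204, minus strand: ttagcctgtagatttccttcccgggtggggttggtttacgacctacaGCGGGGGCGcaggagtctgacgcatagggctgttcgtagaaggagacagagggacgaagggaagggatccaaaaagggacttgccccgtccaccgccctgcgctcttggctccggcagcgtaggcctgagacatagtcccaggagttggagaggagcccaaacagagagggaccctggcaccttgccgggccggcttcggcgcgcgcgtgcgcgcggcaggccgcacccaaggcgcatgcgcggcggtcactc

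A promoter of this kind was found for 9086 of the 12079 genes tested, and 3.97% of them hold the core of the interferon element. Among the genes higher in Egr2MKO it was present in 13 of the 41 with a promoter (31.7%), and among the lower genes in 2 of 47 (4.26%). Either EGR site (GCGTGGGCG or GCGGGGGCG) was present in 7.44% of all promoters, in 2 of 47 promoters of lower genes (4.26%, Mgll and Alas1) and in 1 of 41 promoters of higher genes (2.44%). A STAT6 site (TTCNNNNGAA, the same on both strands) was present in 6.67% of all promoters, in 8 of 41 of the higher genes (19.5%) and in 5 of 47 of the lower genes (10.6%). The letters of the interferon element and of the STAT6 site can overlap by their GAA ends. Of the called genes, only Ifi205, Ifi211 and Ifi213 held both, and there the sites lay apart and shared no letters. Some of the higher genes are copies of one another. The promoters of Ifit3 and Ifit3b are nearly the same, and those of Ifi205 and Ifi211 share long stretches, so the genes counted are not independent sequences. A match is a description of these windows alone, and sites in distal enhancers are outside them.

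Egr2 (chr10:67537869-67542188 on mm10, plus strand), the targeted gene, stood at 82.0 and 75.6 TPM in the 2 Egr2WT libraries and at 3.39 and 4.09 TPM in the 2 Egr2MKO libraries. The ratio of the means was 21.1 and the log2 difference was -4.08 ± 0.18 (SE, limma adjusted p = 5.31e-08). The labels and the gene went together in all 4 libraries, and the remaining signal was not zero. In untreated cells Egr2 was at 23.6 and 21.3 TPM in Egr2WT and at 0.859 and 0.854 TPM in Egr2MKO. The 1 h rise of log2 1.76 in Egr2WT (adjusted p = 8.12e-05) had a counterpart of 1.35 in Egr2MKO (adjusted p = 0.000618). The exons removed are not given in the sources used here, so whether the remaining transcript is intact, or comes from cells that kept the gene, cannot be told apart. As these are bulk samples, fewer cells expressing a gene and less RNA in each cell cannot be told apart for any gene below either.

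Among the other genes of the EGR family and its NAB corepressors, which EGR proteins induce and which restrain them, Egr1 was under 1 TPM in every 1 h library and Egr3 and Egr4 were too low to test. Nab2 was at 10.5 and 10.6 TPM in Egr2WT and at 6.33 and 5.33 TPM in Egr2MKO, a log2 difference of -0.76 ± 0.15 that passed the test (adjusted p = 0.00492) without reaching 2-fold. Nab1 differed by log2 0.22 ± 0.06 (adjusted p = 0.0464). The Lyz2 gene, whose locus carries Cre, was lower in Egr2MKO (log2 difference -0.42, 21444 and 20945 TPM against 15791 and 15900, adjusted p = 3.47e-05). Its neighbour Lyz1 went the other way (21.9 and 21.3 TPM against 33.7 and 33.2).

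Reads rebuilt from the TPM came to 7.17 to 11.1 M (1e+06 reads) in the Egr2WT libraries at 1 h and to 10.8 to 14.2 M in those of Egr2MKO, so that 1 read of a 2 kb transcript is worth 0.0525 to 0.104 TPM. One library stood apart in a small set of genes. Egr2MKO replicate 1 at 1 h was more than 4-fold above replicate 2 in 12 genes other than small RNA genes, and below it by as much in 0. Fn1 was at 72.9 TPM in replicate 1 and 0.529 TPM in replicate 2, Alox15 at 37.6 and 0.173 TPM, and Prg4 at 24.0 and 1.65 TPM. Most of these genes are known from resident peritoneal macrophages. A list of 15 such genes, drawn up after these values were seen, held 11 of the 12, so its sums at 1 h largely restate how the 12 were chosen. It summed to 210.8 TPM in replicate 1 against 13.8 TPM in replicate 2 and 16.0 to 17.6 TPM in Egr2WT, and all 15 were highest in replicate 1. The same list summed to 97.1 and 500.5 TPM in the Egr2MKO libraries at 6 h and to 14.1 and 20.0 TPM in those at basal. None of the 12 genes was called at 1 h. Over the 63 lower genes other than small RNA genes the median log2 difference from Egr2WT was -1.23 in replicate 1 and -1.23 in replicate 2. Over the 53 higher genes it was 1.22 and 1.32, and none of these called genes differed by more than 0.51 between the replicates. A wide gap between replicates raises the standard error and works against a call. The absence of the 12 genes and these medians and gaps therefore do not show how far replicate 1 affected the calls. Without replicate 1, 64 genes were higher, 51 of them among the 58, and 66 were lower, 55 of them among the 70. Without replicate 2, 57 were higher, 40 of them among the 58, and 57 were lower, 53 of them among the 70.

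Several of the lower genes encode proteins of the cell surface or the extracellular space. Itgax, which encodes the integrin chain CD11c, was at 24.7 and 25.4 TPM in Egr2WT and at 2.39 and 2.08 TPM in Egr2MKO, a log2 difference of -3.01 ± 0.07 (limma adjusted p = 1.72e-10). Chil3 encodes the chitinase-like protein Ym1, a classical marker of alternative activation, and fell from 124 and 117 TPM to 20.7 and 19.2 TPM (-2.53 ± 0.17, adjusted p = 1.56e-06). Mmp12, the macrophage elastase, was among the most abundant of the lower genes with 1389 and 1322 TPM in Egr2WT and 261 and 259 TPM in Egr2MKO (-2.38 ± 0.09, adjusted p = 7.73e-09). For each of these genes the gap between genotypes was several times the gap between replicates. Itgb3, the integrin beta 3 chain, differed by log2 -1.70 (51.4 and 47.9 TPM against 14.2 and 15.05), and the chemokine receptor Ccr1 by -1.69 (33.4 and 31.3 TPM against 9.42 and 9.18). Gpc1, a heparan sulphate proteoglycan of the cell surface, was at 29.1 and 29.2 TPM against 8.14 and 8.66 TPM.

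Others act inside the cell or in metabolism. Atp6v0d2, a subunit of the vacuolar proton pump known from osteoclasts and macrophages, was at 133 and 133 TPM in Egr2WT and at 17.5 and 17.2 TPM in Egr2MKO (log2 difference -2.87 ± 0.05, adjusted p = 1.06e-11). Mgll, which hydrolyses monoacylglycerols, was at 24.1 and 24.2 TPM against 2.55 and 3.09 TPM (-2.73 ± 0.12, adjusted p = 5.31e-08). Alas1, the first and rate-limiting enzyme of haem synthesis, was at 347 and 337 TPM against 100.2 and 101 TPM (-1.76 ± 0.03, adjusted p = 3.58e-11). Alas1 thus had the smallest error among the genes named here. Cyp1b1, a cytochrome P450, stood at 8.76 and 8.03 TPM against 1.02 and 0.970 TPM. Acpp, an acid phosphatase, stood at 24.4 and 22.3 TPM against 6.07 and 4.84 TPM, and Serpinb9b, a serpin of the granzyme inhibitor family, at 55.6 and 53.9 TPM against 14.6 and 16.5 TPM. At low levels, the elongation factor Eef1a2 (6.45 and 7.31 TPM against 0.412 and 0.678) and Bex1 (3.11 and 2.64 TPM against 0 and 0.160) were also lower.

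**Figure D1:**
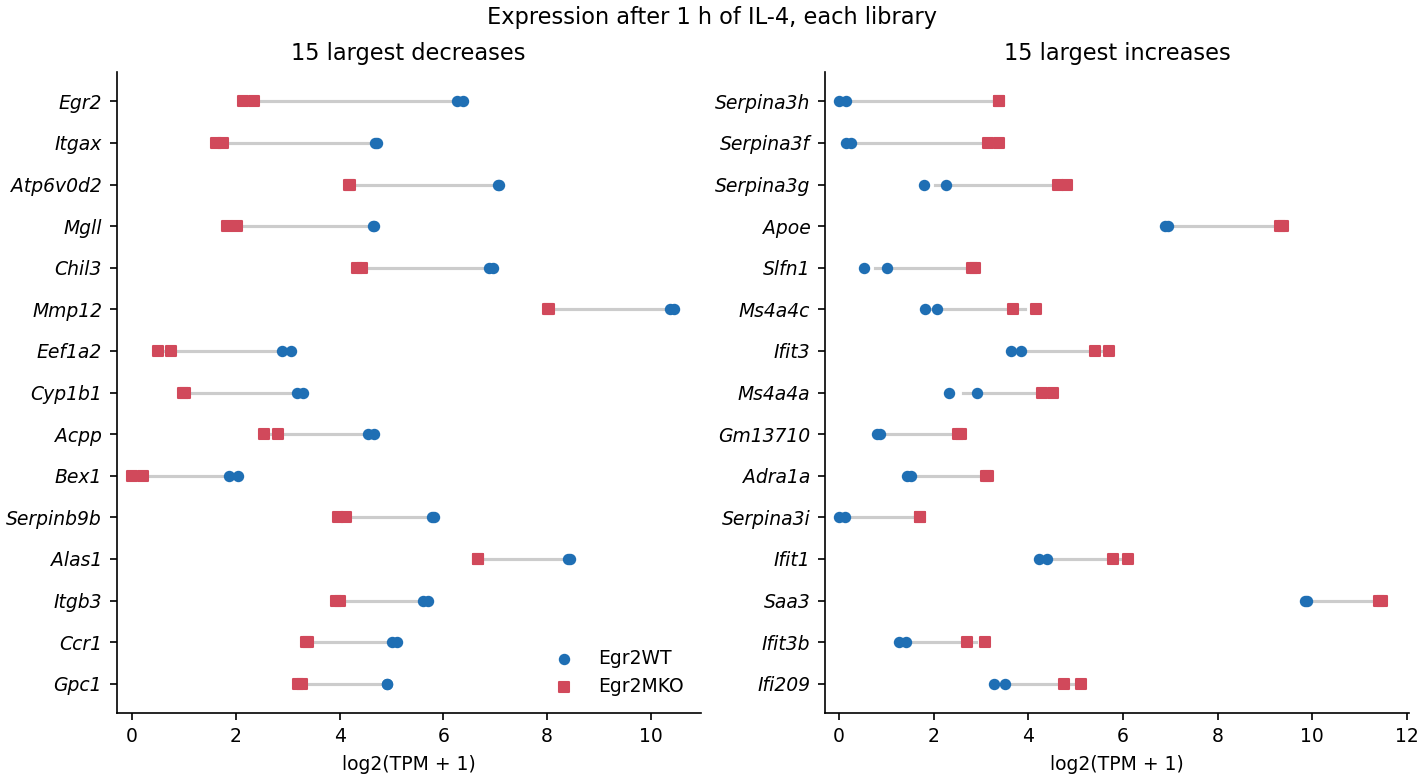
Expression of the 15 genes with the largest decreases (left) and the 15 with the largest increases (right) in Egr2MKO after 1 h of IL-4. The horizontal axis is log2(TPM + 1), each point is a library (2 per genotype, circles for Egr2WT and squares for Egr2MKO) and the grey bar joins the group means. In every gene shown both Egr2MKO libraries lie on one side of both Egr2WT libraries, with mean differences of log2 -4.08 for Egr2 and 3.31 for Serpina3h.

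The genes that rose most encode Serpina3 proteins, protease inhibitors of the serpin family, and lie side by side on chromosome 12. Serpina3h (chr12:104247896-104254405 on mm10, plus strand) was at 0 and 0.101 TPM in Egr2WT and at 9.43 and 9.45 TPM in Egr2MKO, a difference of 3.31 ± 0.12 on the log2(TPM + 1) scale (limma adjusted p = 6.95e-09). Reads rebuilt from the TPM gave 0 and 1 read in Egr2WT and 184 and 140 reads in Egr2MKO, so no fold is given. Serpina3f was at 0.198 and 0.102 TPM in Egr2WT and at 7.88 and 9.36 TPM in Egr2MKO (3.06 ± 0.16, adjusted p = 1.94e-07). Serpina3g had a measurable level in both genotypes, at 3.80 and 2.46 TPM in Egr2WT and 23.8 and 27.2 TPM in Egr2MKO (2.70 ± 0.14, adjusted p = 1.94e-07). Serpina3i was lower throughout, at 0 and 0.095 TPM against 2.25 and 2.27 TPM (1.64 ± 0.24, adjusted p = 0.000661). In all 4 genes every Egr2MKO library exceeded every Egr2WT library. Of the 5 Serpina3 genes tested, 4 were called higher, against 0.48% of all genes. Serpina3f, Serpina3h and Serpina3i were below 1 TPM in Egr2WT at basal and 1 h. They pass the filter of 1 TPM in 2 libraries by their Egr2MKO libraries at 1 h alone. The number tested is thus shaped by the difference itself. These genes are close paralogs, and Serpina3f and Serpina3g have the same start in the deposited annotation (position 104214544), so how reads were shared among them is uncertain.

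Apoe, the apolipoprotein that macrophages secrete with cholesterol, was at 123 and 118 TPM in Egr2WT and at 667 and 634 TPM in Egr2MKO, a log2 difference of 2.42 ± 0.07 (limma adjusted p = 1.61e-09). Saa3, an acute-phase serum amyloid A protein made by macrophages, was among the most abundant of the higher genes with 924 and 945 TPM against 2704 and 2839 TPM (1.57 ± 0.05, adjusted p = 6.95e-09). Fcgr1, the high-affinity IgG receptor, was at 17.8 and 21.2 TPM against 47.5 and 50.9 TPM (1.29 ± 0.10, adjusted p = 8.65e-06). The replicates of each gene were close together relative to these gaps. Nr1h3, the oxysterol receptor LXR alpha of which Apoe is a known target, was higher by 0.98 (adjusted p = 1.81e-05), just under 2-fold, and its targets Abca1 and Abcg1 by 0.31 each. Of the 11 tested genes of the PPAR, RXR and LXR list, 4 were higher and 2 lower by adjusted p, against 6.04% and 5.37% of all genes. Their differences ran from -0.53 to 0.98, with a median of 0.05. Ms4a4c (3.21 and 2.53 TPM against 11.8 and 16.9) and Ms4a4a (6.52 and 3.98 TPM against 18.6 and 22.1) encode four-span membrane proteins, and 4 of 8 Ms4a genes tested were called higher, against 0.48% of all genes. Low in Egr2WT were Slfn1 (0.434 and 1.00 TPM against 6.05 and 6.33), Adra1a (1.88 and 1.69 TPM against 7.61 and 7.89) and the unnamed locus Gm13710 (0.810 and 0.750 TPM against 4.69 and 5.01).

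Genes that interferons induce were prominent among the higher genes. Of a list of 19 interferon-stimulated genes, 8 were called higher after 1 h and 0 lower, against 0.48% of all genes called higher, and 18 were higher by the adjusted p alone, against 6.04% of all genes. This list and the other lists by function, class II genes included, were chosen with earlier results of these data known. Their shares beside those of all genes are therefore descriptions and not tests. Their median log2 difference was 0.81, against 0.01 over all genes tested. Ifit3, an RNA-binding antiviral protein, was at 11.5 and 13.3 TPM in Egr2WT and at 41.6 and 51.5 TPM in Egr2MKO (1.82 ± 0.14, adjusted p = 5.71e-06). Ifit1 was at 17.8 and 20.0 TPM against 54.3 and 67.9 TPM (1.64 ± 0.15), and Isg15, a ubiquitin-like protein, at 34.4 and 35.7 TPM against 68.9 and 78.2 TPM (1.05 ± 0.07). Both Egr2MKO libraries were above both Egr2WT libraries in these genes, with replicate 2 the higher one. Ifit2, Rsad2, Oasl2, Ifi44 and Cmpk2 were the other five called, and Mx2 was the gene that did not pass (0.60, adjusted p = 0.177). The count of 8 was 5 without Egr2MKO replicate 2 and 9 without replicate 1. The core of the interferon element was present in 10 of the 15 list members with a promoter (66.7%).

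Factors that carry interferon signals were also among the genes that differed. Irf7, the interferon regulatory factor that amplifies type I interferon, was at 108 and 103 TPM in Egr2WT and at 274 and 295 TPM in Egr2MKO (1.43 ± 0.08, adjusted p = 2.2e-07). Irf7 was the 1 called gene among 8 members of its family tested. Stat2, a subunit of the complex that type I interferon activates, was at 44.0 and 42.8 TPM against 60.1 and 69.3 TPM (0.56 ± 0.07, adjusted p = 0.000319). Irf4, which IL-4 induces, was lower (log2 difference -0.54, 10.2 and 9.66 TPM against 6.33 and 6.68, adjusted p = 0.0130). Further called genes of interferon-inducible families, counted after their values were seen, were Ifi209 (8.61 and 10.4 TPM against 25.9 and 33.8) and Ifit3b (1.40 and 1.65 TPM against 5.53 and 7.42). In all, 4 of 10 genes named Ifit, 4 of 10 of the Ifi200 family, 3 of 8 Gbp genes and 2 of 9 Slfn genes tested were called higher, against 0.48% of all genes, and 0 were called lower. Members of these families share sequence, which may blur single values.

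Major histocompatibility complex class II genes, which present antigen to CD4 T cells, were higher as well. Ciita, the transactivator of the group, was at 3.49 and 3.65 TPM in Egr2WT and at 8.39 and 8.40 TPM in Egr2MKO (1.04 ± 0.13, adjusted p = 0.000301). Cd74, the invariant chain, was at 297 and 264 TPM against 574 and 570 TPM (1.03 ± 0.05, adjusted p = 1.48e-07). H2-Aa (0.94), H2-Ab1 (0.99) and H2-Eb1 (0.76) passed the adjusted p without exceeding 2-fold, and H2-DMa (0.21) and H2-DMb1 (0.12) did not pass. The list of 7 thus had 2 genes called higher, against 0.48% of all genes, 5 higher by adjusted p, against 6.04%, and a median of 0.94. H2-Ab1 lay just outside the 2-fold limit, as did Rtp4 (0.99), Igtp (0.99) and Pkp2 (-0.99), and just inside it were Procr (-1.001), Gbp7 (1.002), Clec7a (-1.005) and Oasl2 (1.01).

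Among cytokines and chemokines, Ccl5 was the only 1 of 22 genes called (102 and 97.8 TPM against 212 and 222, log2 difference 1.11 ± 0.10, adjusted p = 2.58e-05). A further 6 were higher by adjusted p alone, among them Tnf (0.53), Ccl4 (0.61) and Cxcl10 (0.84), 0 were lower, and the list median was 0.37. Of 11 NF-kB subunits and inhibitors, 5 were higher by adjusted p, 0 were called, and the median was 0.21. Among 17 genes of the IL-4 receptor, JAK kinases and STAT factors 0 were called, 5 were higher and 1 lower by adjusted p, against 6.04% and 5.37% of all genes, and the median was 0.05. Il4ra was at 39.6 and 38.7 TPM against 37.6 and 37.5 TPM (-0.06 ± 0.06, adjusted p = 0.609), and Stat6 at 97.2 and 101 TPM against 111 and 110 TPM (0.16 ± 0.04, adjusted p = 0.0393).

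Alternative activation genes were split. Of 21 tested, 4 were called lower and 0 higher, against 0.58% and 0.48% of all genes, and the median was -0.04. The 4 were Itgax, Chil3, Mgl2, a lectin, and Clec7a, the beta-glucan receptor dectin-1 (400 and 389 TPM against 191 and 201, adjusted p = 2.2e-07). Mgl2 was at 6.45 and 7.52 TPM against 2.59 and 3.05 TPM (-1.06 ± 0.20, adjusted p = 0.00512), and without Egr2WT replicate 2 its adjusted p was 0.0534. Arg1, the arginase of alternatively activated cells, was at 151 and 102 TPM in Egr2WT and at 86.8 and 62.2 TPM in Egr2MKO. Its log2 difference of -0.74 ± 0.24 did not pass (adjusted p = 0.067). The mannose receptor Mrc1 was at 108 and 105 TPM against 104 and 112 TPM (0.02 ± 0.05, adjusted p = 0.866). Fn1, also on this list, had a log2 difference of 2.10 that came from Egr2MKO replicate 1 alone and did not pass (adjusted p = 0.379). Retnla was near 1 TPM in both genotypes at this time, with a standard error of 0.73, so a difference was not detectable.

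**Figure D2:**
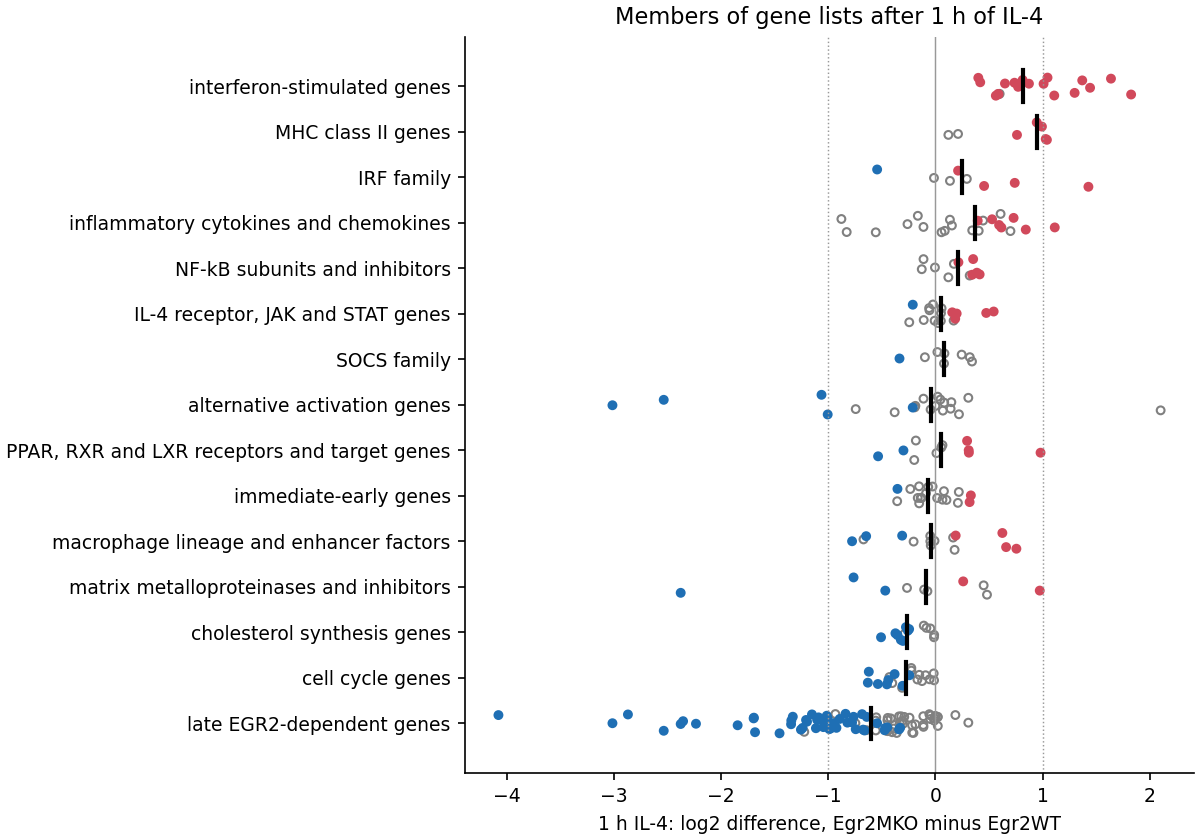
Log2 difference between Egr2MKO and Egr2WT after 1 h of IL-4 (horizontal axis, on log2(TPM + 1)) for the tested members of 15 gene lists (rows). Each point is a gene, filled where the limma adjusted p is under 0.05 (red higher, blue lower in Egr2MKO), the black bar is the list median, and dotted lines mark 2-fold. Interferon-stimulated genes (median 0.81) and class II genes (0.94) lie to the right, and late EGR2-dependent genes (-0.60) to the left.

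The remaining lists held few or no calls. Among 19 immediate-early genes 0 were called and the median was -0.07, and the same held for 8 SOCS genes (0.08), 10 KLF factors (0.00), 11 receptors and targets of the PPAR, RXR and LXR group (0.05), 15 lineage and enhancer factors (-0.04), 5 heat shock genes (-0.18) and 7 hypoxia genes (-0.23). In the metalloproteinase list of 10, Mmp12 was called lower and Mmp14 was higher by 0.97 (adjusted p = 4.18e-07). Of 14 cholesterol synthesis genes 8 were lower by adjusted p, with a median of -0.27, and of 20 cell cycle genes 8 were lower, with a median of -0.28, none by more than 2-fold. For comparison, 5.37% of all genes were lower by adjusted p.

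Markers of other cells that marrow cultures can hold were low. Ly6g of neutrophils and Cd3d and Cd8a of T cells were at 0 in all 4 libraries, while other members of these lists were not. At least 1 TPM was reached by 3 of 7 neutrophil markers in each Egr2WT library and 2 of 7 in each Egr2MKO library. For T cells it was 1 of 5 markers in every library. The 4 neutrophil markers tested had log2 differences of -1.32 to -0.45, and 2 of them were lower by adjusted p. The 7 neutrophil markers summed to 69.5 to 83.9 TPM in Egr2WT and to 39.3 to 49.9 TPM in Egr2MKO, mainly S100a8 and S100a9, and S100a9 was called lower (23.2 and 16.7 TPM against 6.87 and 7.71, adjusted p = 0.0261). The 5 T cell markers summed to 1.27 to 1.31 TPM against 3.09 to 3.10 TPM, almost entirely from Cd4. B cell, NK cell, mast cell, dendritic cell, erythroid and stromal lists summed to at most 4.05 TPM in any of the 4 libraries at 1 h. The 8 macrophage markers summed to 25218 to 25766 TPM in Egr2WT and to 20557 to 20620 TPM in Egr2MKO. Most of both sums was Lyz2, whose locus carries Cre. By adjusted p 5 of the 8 were higher in Egr2MKO and 2 lower, against 6.04% and 5.37% of all genes. Their median log2 difference was 0.26. The part of these shifts in the differences above was not tested.

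Genes near the manipulated loci were looked at because floxed alleles and transgenes carry flanking DNA of their strain of origin. Of 9 tested genes within 2 Mb of Egr2 and 19 within 2 Mb of Lyz2, 0 were called, against 1.06% of all genes. Within 10 Mb, 0 of 95 near Egr2 were called and 2 of 69 near Lyz2 (Bbs10 and Phlda1). By adjusted p alone, 4 of the 9 genes within 2 Mb of Egr2 differed (44.4%, 2 higher and 2 lower) and 2 of the 19 within 2 Mb of Lyz2 (10.5%), against 11.4% of all genes. Within 10 Mb these shares were 17.9% near Egr2 and 15.9% near Lyz2. By chromosome the called share was between 0.45% (chromosome 8) and 2.22% (chromosome 19), where the Ifit and Ms4a clusters lie.

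The genotype difference was then set beside that of untreated cells, whose group means rest on 4 other libraries. The spread was pooled over all 16 libraries and is the same at every time. Calls at different times are therefore not independent tests, and a gene with a small pooled spread is favoured at each of them. At basal 103 genes were called (0.853%), 45 higher (0.373%) and 58 lower (0.48%). Of the 58 genes higher at 1 h, 37 were also called higher at basal, which is 63.8% of the 1 h list and 82.2% of the basal list. Of the 70 lower at 1 h, 45 were called lower at basal, or 64.3% and 77.6% of the lists. By sign alone 56 of 58 and 65 of 70 went the same way. The median difference of the higher genes was 1.28 at 1 h and 1.14 at basal, and that of the lower genes was -1.26 and -1.21, while all genes had a median of 0.02 at basal. Itgax (-3.01 and -2.99), Atp6v0d2 (-2.87 and -2.88), Mgll (-2.73 and -2.70), Apoe (2.42 and 2.31) and Saa3 (1.57 and 1.56) had nearly the same difference before and after IL-4.

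**Figure D3:**
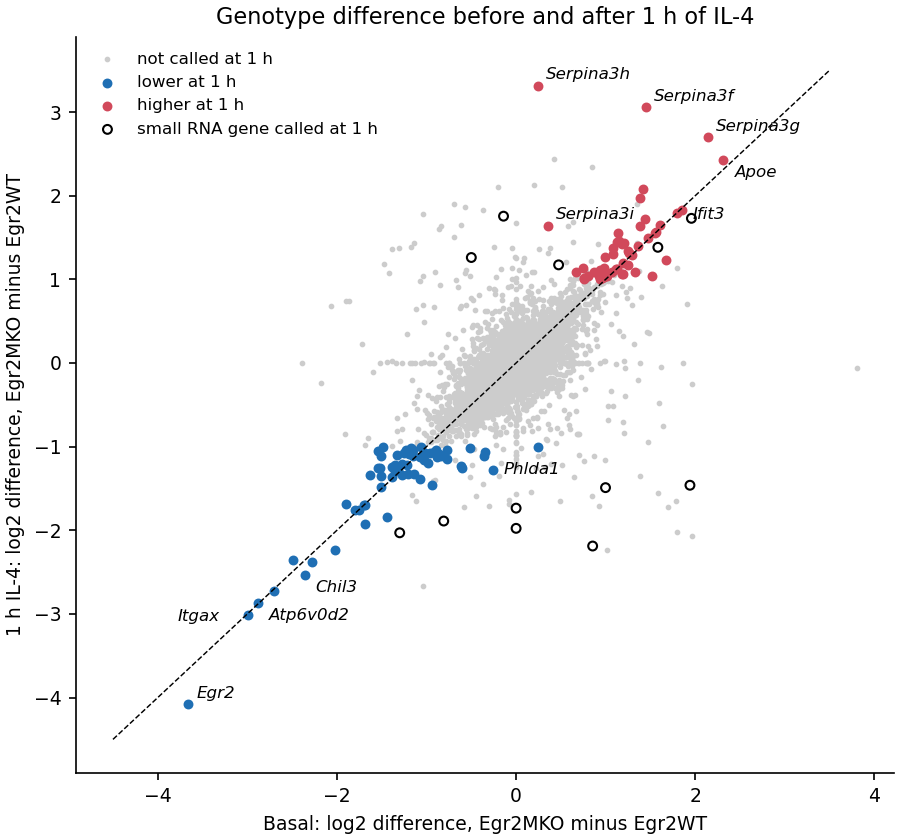
Log2 difference between Egr2MKO and Egr2WT in untreated cells (horizontal axis) and after 1 h of IL-4 (vertical axis) for 12079 genes, as log2(TPM + 1). Genes called at 1 h are blue (lower) or red (higher), open circles are the 12 called small RNA genes, grey points are other genes, and the dashed line marks equal differences. Most called genes lie near the line, while Serpina3h lies at 0.24 on the basal axis and 3.31 on the 1 h axis.

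There were 19 genes called at 1 h with an adjusted p of 0.05 or above at basal, and 9 of them encode small RNAs. The other 10 were Phlda1, Sntb1, Trnp1, Slc36a2, Ppbp, Hopx and A930006K02Rik on the lower side and Serpina3h, Serpina3i and Slfn4 on the higher side. Phlda1, a gene of the first IL-4 response, rose in Egr2WT from 1.33 and 0.542 TPM to 3.09 and 4.88 TPM and was at 0.915 and 1.13 TPM in Egr2MKO at 1 h (-1.28 ± 0.25, limma adjusted p = 0.00555). Its adjusted p was 0.0728 without Egr2WT replicate 2, and the difference in response between genotypes did not pass (-1.02 ± 0.35, adjusted p = 1). A gene that passed at 1 h and not at basal is thus not shown to have changed its difference.

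At later times the same direction held. Of the 58 higher genes, 43 were called higher at 6 h (74.1% of them and 39.8% of the 108 called there) and 50 at 24 h (86.2%, and 17.1% of 292). Of the 70 lower genes, 53 were called lower at 6 h (75.7%, and 31.2% of 170) and 55 at 24 h (78.6%, and 21.3% of 258). At 6 h the calls amounted to 0.894% of all genes higher and 1.41% lower, and at 24 h to 2.42% and 2.14%. The number called at 6 h was 278 (2.3%) and was 226 without Egr2MKO replicate 2, the library with the highest sum of peritoneal macrophage genes. At all 4 times 30 genes were called higher and 39 lower. The median of the 70 lower genes was -1.99 at 24 h and that of the 58 higher genes 1.74, against 0.12 over all genes. Chil3 reached -3.26 and Itgax -4.34 at 24 h, Irf7 reached 2.80, and Apoe stayed at 2.49.

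**Figure D4:**
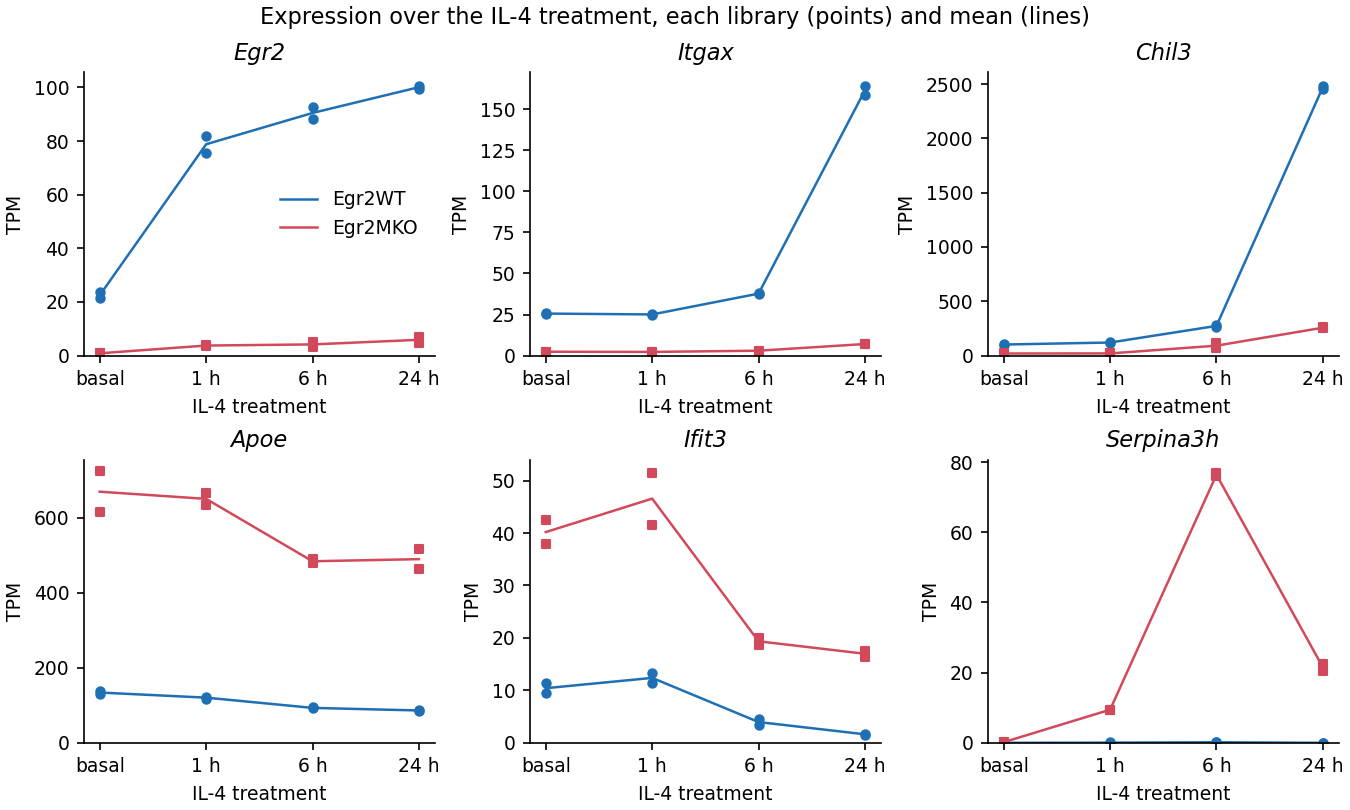
TPM of 6 genes at basal and after 1, 6 and 24 h of IL-4 (horizontal axis, not to scale in time), with each library as a point and the mean of 2 as a line (blue circles Egr2WT, red squares Egr2MKO). Egr2 rises at 1 h in Egr2WT, Itgax and Chil3 are apart before they rise, Apoe and Ifit3 are higher in Egr2MKO at every time, and Serpina3h is near 0 in Egr2WT throughout while Egr2MKO is at 9.43 and 9.45 TPM after 1 h and 76.9 and 75.9 TPM after 6 h.

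The first-hour IL-4 response itself was compared with genes chosen in other libraries, those of the C57 time course, where 85 genes were raised (0.703%) and 21 lowered (0.174%) after 1 h. Of these, 83 and 20 were tested here. Of the 83, 52 were called raised by IL-4 in Egr2WT, 58 in Egr2MKO and 50 in both. Among all genes tested, 73 were raised in Egr2WT (0.604%) and 83 in Egr2MKO (0.687%), and 21 (0.174%) and 26 (0.215%) were lowered. The median log2 response of the 83 genes was 1.22 in Egr2WT and 1.31 in Egr2MKO, and 61 of the 83 had the larger value in Egr2MKO. The median difference of the responses, Egr2MKO minus Egr2WT, was 0.18 over the 83 and -0.001 over all genes tested. Of the 83, 0 were called for this difference at 2-fold, and 1 passed the adjusted p at any fold. The 20 lowered genes had medians of -0.98 and -1.23, with 9 and 14 called. The responses of a genotype share their libraries, so these counts are not independent from gene to gene.

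Most of the strongest early genes did not differ between genotypes by the adjusted p. Socs1, a feedback inhibitor of JAK kinases, rose by log2 5.81 in Egr2WT and 6.00 in Egr2MKO, to 267 and 245 TPM and to 335 and 313 TPM (genotype difference at 1 h 0.34 ± 0.17, limma adjusted p = 0.245). Ch25h, which makes 25-hydroxycholesterol, rose by 4.88 and 4.80, to 49.8 and 47.3 TPM and to 48.3 and 52.0 TPM. The monocyte chemoattractant Ccl7 rose by 4.26 and 4.34, and Ccl2 by 2.53 and 2.71. The genotype difference at 1 h was 0.05 for Ch25h, 0.40 for Ccl7 and 0.09 for Ccl2, none of which passed. Cish, another STAT-induced feedback inhibitor, rose by 3.61 and 3.68, from a lower basal level in Egr2MKO, and at 1 h was at 43.2 and 40.5 TPM against 32.8 and 32.9 TPM (-0.34 ± 0.09, adjusted p = 0.0310). Trib1, a pseudokinase needed for some macrophage types, rose by 3.27 and 3.64 and was higher in Egr2MKO at 1 h (22.2 and 20.8 TPM against 37.7 and 35.5, 0.74 ± 0.13, adjusted p = 0.00327). Myc rose by 2.40 and 2.58, and Hbegf, an EGF receptor ligand, by 2.44 and 2.76.

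**Figure D5:**
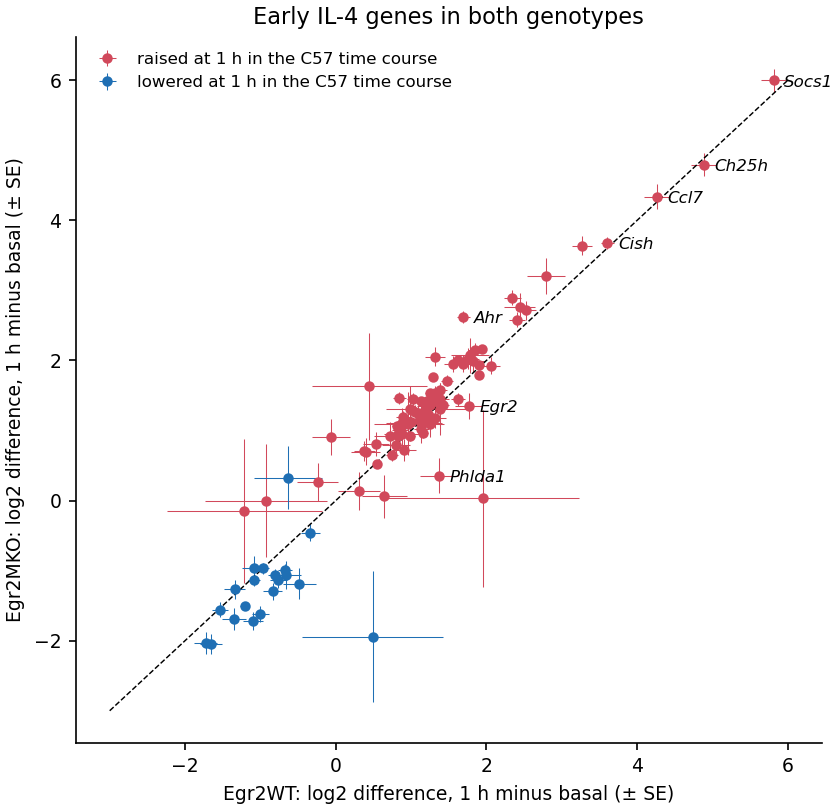
Log2 response to 1 h of IL-4 in Egr2WT (horizontal axis) and Egr2MKO (vertical axis) for 83 genes raised (red) and 20 lowered (blue) at 1 h in the C57 time course. Points are limma estimates from 2 libraries per group with bars of 1 SE from the pooled spread of 16 libraries, and the dashed line marks equal responses. Most genes lie at or just above the line in the raised set, Socs1 at 5.81 and 6.00, and Ahr lies above it at 1.69 and 2.62.

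At 1 h, 5 of the 83 raised genes were called different between genotypes, against 1.06% of all genes. Rasgrp1 was higher in Egr2MKO (1.08), and Egr2, Phlda1, Clec7a and the lipoprotein receptor Olr1 (-1.33) were lower. Clec7a still rose with IL-4 in both genotypes, by 1.29 in Egr2WT and 1.77 in Egr2MKO, from a basal level of 157 and 165 TPM against 59.6 and 54.5 TPM. Over the 83 genes the median genotype difference at 1 h was 0.12. By adjusted p 20 were higher and 8 lower, against 6.04% and 5.37% of all genes.

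A difference in the 1 h response between genotypes was tested as an interaction, estimated from the 4 libraries at 1 h together with the 4 at basal. It was called for 1 gene in 12079 (0.00828%), Serpina3h. Serpina3h was at 0 and 0 TPM in untreated Egr2WT and at 0.136 and 0.236 TPM in untreated Egr2MKO, so it responded by 3.14 ± 0.12 in Egr2MKO (adjusted p = 6.89e-09) and by 0.07 in Egr2WT. The difference in response was 3.07 ± 0.16 (adjusted p = 6.7e-06), and in a limma-voom fit to rebuilt reads, chosen after seeing the data, its adjusted p was 0.128. Ahr, the aryl hydrocarbon receptor, was the other gene with an adjusted p under 0.05, without reaching 2-fold. It rose from 3.98 and 4.46 TPM to 16.4 and 15.4 TPM in Egr2WT (1.69 ± 0.08) and from 2.87 and 2.57 TPM to 21.8 and 21.9 TPM in Egr2MKO (2.62 ± 0.08). Ahr was therefore lower in Egr2MKO before IL-4 (-0.49, adjusted p = 0.00219) and higher after 1 h (0.44, adjusted p = 0.00481). At an unadjusted p under 0.05 there were 318 genes. Serpina3f (1.62 ± 0.22, adjusted p = 0.0547) missed the threshold narrowly. Serpina3g rose in both genotypes, by 1.59 and 2.15.

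Last, the 1 h libraries were examined for late EGR2-dependent genes, a name used here for lower expression in Egr2MKO at 24 h of IL-4. These were 90 genes that 24 h of IL-4 raised in Egr2WT, as it did 2.31% of all genes, and that were lower in Egr2MKO at 24 h. The differences behind this choice used the basal and 24 h libraries and not those at 1 h, while the pooled spread used all 16. At 1 h, 27 of the 90 were called lower and 0 higher, against 0.58% of all genes called lower, 47 were lower by adjusted p, against 5.37%, and 83 had a difference below 0. The median was -0.60, against 0.01 over all genes. Before IL-4, 23 of the 90 were already called lower and 45 were lower by adjusted p, with a median of -0.53, and at 6 h 44 were called lower with a median of -0.97. Rbp4, the retinol carrier and the gene with the largest loss at 24 h (-4.49), was at 0 and 0.224 TPM in Egr2WT and at 0 and 0.150 TPM in Egr2MKO at 1 h, so it was near 0 in both genotypes. Myrf, a membrane-bound transcription factor, was at 2.26 and 1.93 TPM against 0.188 and 0.248 TPM at 1 h (-1.34 ± 0.18, adjusted p = 0.000385) and differed by -3.50 at 24 h. Itgax, Egr2 and Eef1a2 were the other three with the largest late loss, and all were called lower at 1 h. A STAT6 site was present in 9 of the 64 late genes with a promoter (14.1%) and either EGR site in 5 (7.81%).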

How the data were processed

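RNA of BMDMs was sequenced after poly(A) selection. Per the labels and the study's methods, reads were mapped with STAR and assigned to genes of mm10 with HOMER, and the values deposited by the authors are TPM per gene and library, with no read counts. TPM of a library sums to 606226 to 622741 over the genes listed, so the scale includes more than these genes. The table also holds the log2 fold changes and adjusted p-values that the authors computed with DESeq2, which were not used. A smaller step size of TPM means a deeper library. From these steps reads were rebuilt, and 90.6% to 91.2% of low values in the 1 h libraries came out whole within 0.1 read.

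Of 24537 genes, 12079 reached 1 TPM in 2 or more libraries and entered limma 3.58.1 in R 4.3.3 on log2(TPM + 1), with a mean for each of the 8 groups of 16 libraries and variances moderated by empirical Bayes along a mean trend. Genes were called at more than 2-fold with a Benjamini-Hochberg adjusted p under 0.05. An exact permutation test of 2 against 2 cannot go below p = 0.333 and was not used. Groups followed the labels, and all members and gene lists were chosen with earlier results of these data known. Genes were named by rule: Egr2, the 15 largest called differences in each direction, the largest called interactions, the 8 strongest early and 5 largest late genes, and members of the lists. Fcgr1, S100a9, Rasgrp1, Olr1, Bbs10, the genes near the 2-fold limit, those called at 1 h and not at basal, the gene families counted by symbol and the peritoneal macrophage genes were named after their values were seen. Replicate numbers did not pair libraries (r of deviations between same-numbered libraries at 1 h -0.0051). The scripts were tested on simulated data. Alternatives covered the pseudocount, the filter, scaling, the model, the block and each replicate left out. Promoters came from RefSeq (GRCm38.p6). The human, F1 and strain tables were not used here, and the time course table chose the early genes only.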

Additional observations from a re-analysis of the deposited data

Results flagged for a closer look

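In 2 genes the IL-4 response of the first hour differed between the genotypes by a test of the difference itself, the interaction term of the limma model with p-values adjusted over 12079 genes. For Serpina3h the response in Egr2MKO exceeded that in Egr2WT by 3.07 ± 0.16 on the log2(TPM + 1) scale (adjusted p = 6.7e-06), with both Egr2MKO libraries above both Egr2WT libraries at 1 h. For Ahr the excess was 0.93 ± 0.12 (adjusted p = 0.0334), and the order of the genotypes was opposite before and after IL-4. Serpina3h rests on 0 and 1 rebuilt read in Egr2WT at 1 h and on 0 and 0 in untreated Egr2WT, and on 3 and 5 rebuilt reads in untreated Egr2MKO. In a fit to rebuilt reads with limma-voom, chosen after seeing the data, its interaction was 4.78 with an adjusted p of 0.128.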

How the results depend on the processing

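With the replicate number as a block, 57 genes were higher (56 shared with the 58) and 71 lower (70 shared), and the numbers do not pair libraries, so no other use was made of the pairing. With a pseudocount of 5 TPM, which shrinks low genes, there were 29 higher and 23 lower genes, 34 raised and 10 lowered by IL-4 in Egr2WT, 47 raised and 13 lowered in Egr2MKO, 2 interactions, 46, 104 and 270 genotype calls at basal, 6 h and 24 h, 30 early genes raised in Egr2WT, 11 late genes lower and 4 interferon genes higher. With 0.1 TPM there were 3 interactions and 163 basal calls. Interactions numbered 3 without a filter, 2 after scaling by the median of gene ratios, 4 without a trend and 2 with a robust prior. A model of only the groups compared gave 164 calls at 6 h. Limma-voom on rebuilt reads, chosen after seeing the data, gave 85 higher and 165 lower genes, so that 34% of calls were higher, with 41 lowered in Egr2MKO, 249 basal calls and 45 late genes lower. With no fold limit 729 genes were higher and 649 lower, and at 1.5-fold 191 and 207. The cause was not tested for these shifts.

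With libraries left out in turn (those at 1 h, those at basal where the result uses them, and Egr2MKO replicate 2 at 6 h), the counts ran from 52 to 64 higher, 57 to 73 lower, 70 to 85 raised and 18 to 23 lowered in Egr2WT, 76 to 85 raised and 21 to 34 lowered in Egr2MKO, 1 to 5 interactions, 48 to 55 and 54 to 60 early genes raised in Egr2WT and Egr2MKO, 24 to 27 late genes lower and 5 to 9 interferon genes higher. Without Egr2MKO replicate 2 at 6 h, calls were 110, 226 and 557 at basal, 6 h and 24 h. The cause was not tested. Of 1275 values for single genes under the alternatives, 9 lost an adjusted p under 0.05, 4 gained it and 1262 did neither. Direction was compared only where the main or the alternative fit passed, and 0 of those values reversed. The 2-fold limit was not part of this count, so a gene near it could lose its call and still count as unchanged. With 2 libraries a group, differences under 2-fold in genes of low level were often not detectable.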

Other observations

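For some libraries of the knockout table, the total number of tags that the authors give in the header does not go with the depth that the TPM steps imply. For Egr2WT at 1 h the rebuilt reads were 0.873 and 0.866 times the stated tags, close to the 0.879 to 0.912 of the time course libraries. For Egr2MKO at 1 h they were 3.01 and 0.327 times the stated tags, and over the 16 libraries 0.111 to 3.23 times. The Egr2MKO library at 6 h with the highest sum of peritoneal macrophage genes was also the shallowest, with 1.77 M rebuilt reads (1e+06 reads).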
